A study of Mus musculus with 6 samples.

Results

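The genes described are the enzymes of the tricarboxylic acid (TCA) cycle and of the reactions that carry carbon into and out of it. They were taken from the annotation of the deposited table, as every gene that carries the KEGG term for the citrate cycle, leaving out Acly. That rule uses no measured value, though it was set with earlier results of these data known. This gave 30 of 33919 genes. Poly(A) RNA was sequenced from 6 libraries labelled as mouse aorta, 3 with the genotype label KO and 3 with the label WT, and the treatment label of all 6 is Ang II (angiotensin II, the pressor hormone). From the series title the gene in question is Otud1, which encodes a deubiquitinase, in endothelial cells. The submitters describe 3 mice per group, so each library is taken as 1 mouse. The sources used here do not give the allele, any Cre driver, the strain, the age, or the dose and length of treatment.

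The TCA cycle runs in the mitochondrial matrix. Acetyl-CoA from pyruvate or fatty acids joins oxaloacetate to form citrate, which is oxidised stepwise back to oxaloacetate while NADH and FADH2 are handed to the respiratory chain. Its enzymes are abundant in tissues with high oxidative demand, such as striated muscle and brown fat. Several have a cytosolic paralogue that serves biosynthesis or redox shuttling instead, and pyruvate carboxylase refills the cycle when its intermediates are drawn off, for instance as citrate for fatty acid synthesis.

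Some facts of the whole series touch what follows. Total counts ran from 65.3 M to 71.5 M in KO-labelled libraries and from 62.3 M to 70.5 M in WT-labelled ones. Mitochondrially encoded genes took 50.5% to 53.3% of counts in KO-labelled libraries and 55.7% to 57.8% in WT-labelled ones. Outside these genes and their nuclear copies 23.2 M to 23.7 M counts were left in KO-labelled libraries, against 17.6 M to 19.7 M in WT-labelled ones. Otud1 had 1033, 1141 and 1223 counts in KO-labelled libraries, against 593, 699 and 615 in WT-labelled ones. It was thus higher where the label says knockout (log2 change 0.63, SE 0.12), and groups are called by their labels here. Smooth muscle markers, which define the aortic media, summed to 177 to 181 CPM (counts adjusted for library size) in KO-labelled libraries and 543 to 551 CPM in WT-labelled ones. Skeletal muscle markers summed to 12801 to 13107 CPM in KO-labelled libraries and 10495 to 10523 CPM in WT-labelled ones. Skeletal muscle RNA thus exceeded smooth muscle RNA in every library of a tissue labelled aorta. In bulk tissue fewer cells of a type and less RNA per cell cannot be told apart.

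Most TCA cycle genes were higher in KO-labelled libraries, by modest amounts. Of the 29 members that passed the filter on low counts, 21 rose, 1 fell and 7 did not pass the test at an adjusted p of 0.05 (edgeR's quasi-likelihood test on counts, Benjamini-Hochberg adjustment over 16620 genes). Among all genes tested 11.5% were called higher and 10.5% lower, or 22% in either direction. The median log2 change over the 29 members was 0.29, beside -0.02 over all genes tested. Of those that rose, Pcx (1.76-fold) and Pdhx (1.53-fold) reached 1.5-fold or more. The member that fell was Pck1, which was 1.89-fold lower in KO-labelled libraries.

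Single libraries showed the same difference. CPM carry TMM scaling factors from edgeR. Relative to the mean of WT-labelled libraries, the median member stood at 0.35, 0.29 and 0.29 on the log2 scale in the 3 KO-labelled libraries, against 0.01, 0.02 and -0.01 in WT-labelled ones. The summed CPM of all 30 members was 4571, 4516 and 4509 in KO-labelled libraries, against 3746, 3772 and 3689.7 in WT-labelled ones. Of the counts outside mitochondrially encoded genes and their nuclear copies, members took 1.4% in every KO-labelled library. In WT-labelled libraries that share was 1.27% to 1.29%, a smaller relative gap than in summed CPM. All 3 values labelled KO lay above all 3 labelled WT in 22 members and below them in 2, Pck1 and Suclg2, while 19.3% of all genes tested lay wholly above and 19.4% wholly below.

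**Figure D1:**
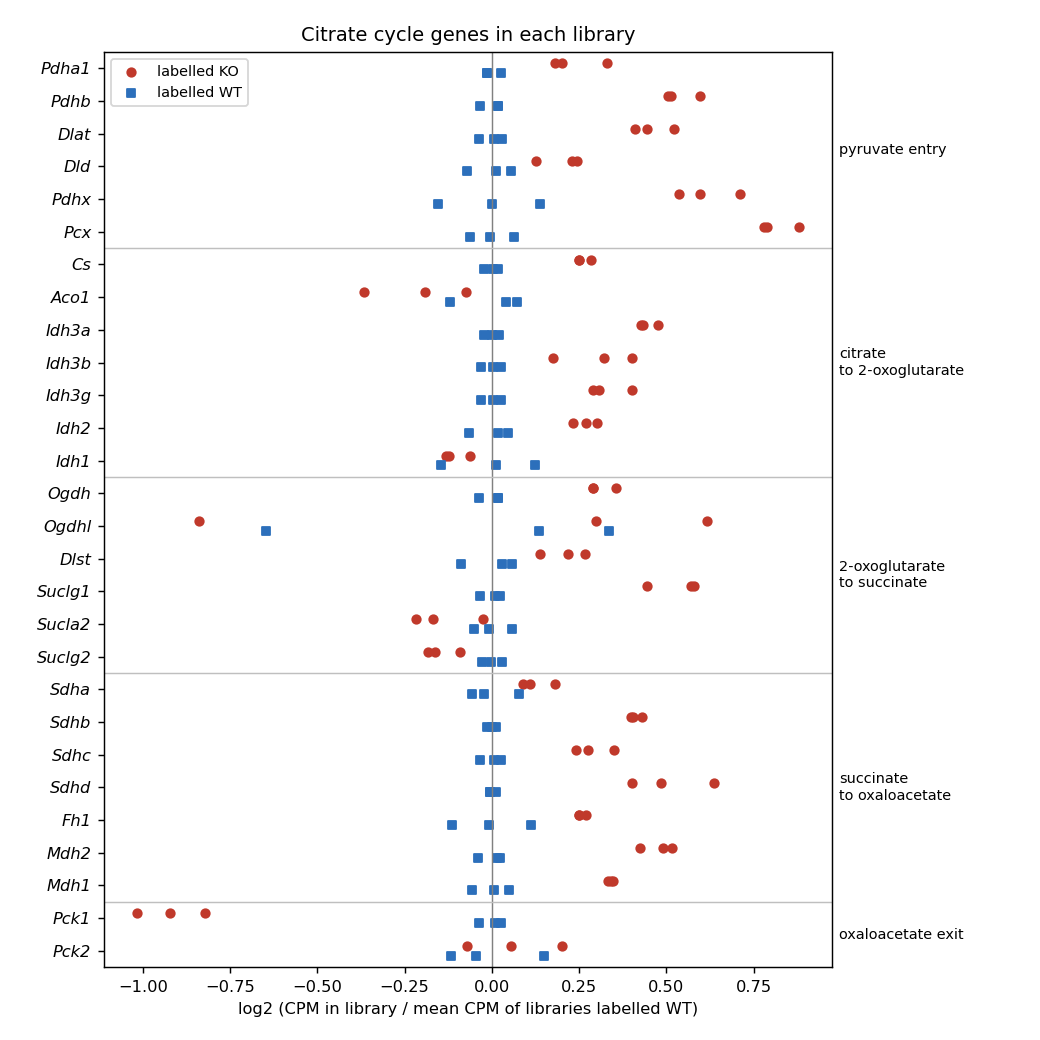
Each row is 1 of 28 citrate cycle genes that passed the filter, grouped by step, and each point is 1 library (circles labelled KO, squares labelled WT), on a log2 scale of its CPM over the mean CPM of WT-labelled libraries. The circles lie to the right of the squares without overlap in 21 of the 28 genes drawn, and Pck1 lies far to the left.

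Markers of other cell types differed between the same libraries, where 11.5% of all genes tested were called higher and 10.5% lower. Of 10 fast fibre markers 6 rose and 1 fell, with a summed level of 20477 to 21356 CPM in KO-labelled libraries and 16793 to 17255 CPM in WT-labelled ones. Of 10 slow fibre markers 2 rose and 6 fell, and their sum was 2062 to 2147 CPM in KO-labelled libraries and 2644 to 2727 CPM in WT-labelled ones. Of the 10 general skeletal muscle markers 6 rose and 1 fell. Brown adipocyte markers were mixed, with 3 of 8 tested members higher and 2 lower, a median log2 change of 0.05, and sums of 726 to 782 CPM in KO-labelled libraries and 585 to 596 CPM in WT-labelled ones. The 2 most abundant of them were Ucp1, the uncoupling protein (412, 384 and 369.5 CPM in KO-labelled libraries, 227, 235 and 233 CPM in WT-labelled ones), and Cidea, a lipid droplet protein, whose log2 change was 0.20, while the changes ran from -1.30 (Dio2) to 0.98 (Elovl3). Markers of smooth muscle (7 of 8 fell) and fibroblasts (8 of 8 fell) went the other way. Endothelial markers summed to 436 to 443 CPM in KO-labelled libraries and 408 to 429 CPM in WT-labelled ones, with 2 of 8 higher and 2 lower, and macrophage markers (132 to 138 CPM labelled KO, 191 to 203 CPM labelled WT) had 4 of 8 lower. The cardiac list summed to 18.1 to 28.1 CPM in KO-labelled libraries and 29.3 to 31.4 CPM in WT-labelled ones, with 1 of 6 tested members higher and 2 lower and a median log2 change of -0.55. Myh6 was its most abundant member, with 12, 16.8 and 7.98 CPM in KO-labelled libraries and 14.6, 19.4 and 17.1 CPM in WT-labelled ones. The cardiac markers that failed the filter, Nppa, Myl7 and Mybpc3, had at most 0.357 CPM in any library. The part of these cell types in the rise of the TCA cycle genes was not tested.

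All 6 genes of the pyruvate entry step rose. Pyruvate dehydrogenase converts pyruvate to acetyl-CoA, and its catalytic E1 component is a tetramer of PDHA1 and PDHB. Pdhb had 167, 168 and 178 CPM in KO-labelled libraries, against 119, 119 and 115 CPM in WT-labelled ones, and its log2 change was 0.54 (SE 0.05, adjusted p = 1.2e-05, edgeR). Pdha1, the subunit that carries the regulatory phosphorylation sites, had 214, 217 and 237 CPM in KO-labelled libraries, against 187, 192 and 187 CPM in WT-labelled ones, and its log2 change was 0.24 (SE 0.05, adjusted p = 0.0043, edgeR). Both separated the groups, with the smaller gap in Pdha1. Dlat, the acetyltransferase core, had 83.3, 85.4 and 90.0 CPM in KO-labelled libraries, against 64.0, 61.1 and 63.0 CPM in WT-labelled ones (log2 change 0.46). Pdhx, which anchors the E3 component to that core, had 31.6, 34.2 and 30.3 CPM in KO-labelled libraries and 18.8, 20.9 and 23.0 CPM in WT-labelled ones (log2 change 0.61). Dld, the dihydrolipoamide dehydrogenase that this complex shares with the 2-oxoglutarate complex, rose least, with 115, 106 and 114 CPM in KO-labelled libraries and 92.5, 101 and 97.9 CPM in WT-labelled ones. Its log2 change was 0.20 (adjusted p = 0.025, edgeR), and the call was lost without KO library 1 or 3 or WT library 1 (adjusted p = 0.094, 0.089 and 0.11).

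Pcx had the highest log2 change of the 29 tested genes. The gene (chr19:4510472-4621752, plus strand, GRCm38) encodes pyruvate carboxylase, which makes oxaloacetate from pyruvate and so refills the cycle, and which supports fatty acid synthesis in fat. Its level was 93.1, 86.8 and 87.4 CPM in KO-labelled libraries, against 50.4, 48.5 and 52.9 CPM in WT-labelled ones. The lowest library labelled KO thus lay well above the highest labelled WT. The log2 change was 0.82 (SE 0.06, adjusted p = 4.1e-06, edgeR) and ran from 0.78 to 0.85 when each library was left out in turn. Of all genes tested, 6.8% had a higher fitted change.

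From citrate to 2-oxoglutarate the mitochondrial enzymes described here rose and the cytosolic paralogues Aco1 and Idh1 did not pass the test. Cs, the citrate synthase that is often used as a measure of mitochondrial content, had 259.5, 259.8 and 266 CPM in KO-labelled libraries, against 215, 221 and 219 CPM in WT-labelled ones (log2 change 0.26, SE 0.04, adjusted p = 0.00051, edgeR). Its lowest KO-labelled library lay above its highest WT-labelled one. The NAD-dependent isocitrate dehydrogenase, which catalyses a rate-controlling oxidation, has a catalytic subunit, Idh3a, and companion subunits, Idh3b and Idh3g. Idh3a had 179.7, 185 and 179 CPM in KO-labelled libraries, against 131, 135 and 133 CPM in WT-labelled ones (log2 change 0.45, SE 0.04, adjusted p = 2.2e-05, edgeR). Idh3g (0.33) and Idh3b (0.30) rose as well. Idh3b overlaps Nop56 on the opposite strand, a gene with 12.5% of its mean count, and no source used here gives the strand setting of the counting. Idh2, the mitochondrial enzyme that makes NADPH instead of NADH and the most abundant member by FPKM (142 ± 8.64 in KO-labelled libraries, 106 ± 3.26 in WT-labelled ones, SD, n = 3 each), had a log2 change of 0.27.

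The cytosolic forms are known from other roles: ACO1 doubles as the iron-regulatory protein IRP1, and IDH1 makes cytosolic NADPH. Aco1 had 21.8, 17.8 and 20.1 CPM in KO-labelled libraries and 23.6, 24.1 and 21.1 CPM in WT-labelled ones. Its log2 change of -0.21 did not pass (95% interval -0.43 to 0.02, adjusted p = 0.19, edgeR), and it was -0.13 without KO library 2 and -0.05 on the deposited FPKM scale. Idh1 had 37.7, 36.2 and 36.0 CPM in KO-labelled libraries and 39.7, 42.9 and 35.6 CPM in WT-labelled ones. The change was -0.11 (interval -0.28 to 0.07), and it was -0.04 without WT library 2 and -0.17 without WT library 3. It turned to 0.05 on the deposited FPKM scale, where the median over all genes was 0.15. After median-ratio scaling of FPKM, Idh1 stood at -0.15 and Aco1 at -0.22. In both genes the groups overlapped. Csl, a citrate synthase-like gene without introns in mouse, had 2, 0 and 2 counts in KO-labelled libraries and 0 in each labelled WT, so the filter on low counts removed it, and no fold is given because both groups lay under the floor of 12 counts per library used here.

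The 2-oxoglutarate to succinate step was uneven. Ogdh, the E1 component of the 2-oxoglutarate dehydrogenase complex, had 273, 261 and 261 CPM in KO-labelled libraries, against 216, 208 and 216 CPM in WT-labelled ones (log2 change 0.31, SE 0.04, adjusted p = 0.00024, edgeR). Dlst, its succinyltransferase core, had 146, 151 and 138 CPM in KO-labelled libraries and 128, 118 and 130.5 CPM in WT-labelled ones, and its log2 change was 0.21 (adjusted p = 0.018, edgeR). That call was lost without KO library 1 or 2 or WT library 2 (adjusted p = 0.06, 0.088 and 0.069). Both enzymes separated the groups. Ogdhl, an E1 form best known from brain, had 1.36, 1.09 and 0.496 CPM in KO-labelled libraries and 1.12, 0.566 and 0.975 CPM in WT-labelled ones, with a wide interval (-0.96 to 1.26).

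Succinyl-CoA ligase joins an alpha subunit, Suclg1, to either of 2 beta subunits, Sucla2 or Suclg2, which decide whether ATP or GTP is formed. Suclg1 had 156, 155 and 142 CPM in KO-labelled libraries, against 102, 105 and 106 CPM in WT-labelled ones. Its log2 change was 0.54 (SE 0.05, adjusted p = 2.9e-05, edgeR). Sucla2, the ATP-forming subunit, had 148, 153 and 169 CPM in KO-labelled libraries and 171, 179 and 166 CPM in WT-labelled ones. Here the groups overlapped, and the log2 change of -0.14 did not pass (interval -0.26 to -0.01, adjusted p = 0.12, edgeR). It was called lower without KO library 3 (-0.19, adjusted p = 0.036) and with DESeq2 (-0.13, adjusted p = 0.038), and was 0.01 on the deposited FPKM scale. Suclg2, the GTP-forming subunit, had 15.1, 16.1 and 15.3 CPM in KO-labelled libraries and 17.1, 17.5 and 16.8 CPM in WT-labelled ones (log2 change -0.14, interval -0.33 to 0.05, adjusted p = 0.30, edgeR), and it too was 0.01 on the FPKM scale. On that scale the median over all genes was 0.15. Median-ratio scaling of FPKM gave -0.19 for Sucla2 and -0.15 for Suclg2.

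From succinate to oxaloacetate 6 of 7 genes rose. Succinate dehydrogenase, complex II of the respiratory chain, holds the flavoprotein SDHA, the iron-sulphur protein SDHB and the membrane anchors SDHC and SDHD. Sdhb had 286, 291 and 285 CPM in KO-labelled libraries, against 218, 216 and 214 CPM in WT-labelled ones (log2 change 0.41, SE 0.04, adjusted p = 1.6e-05, edgeR). Sdhd had 108, 102 and 120 CPM in KO-labelled libraries, against 76.9, 77.0 and 77.8 CPM in WT-labelled ones (log2 change 0.51, SE 0.06, adjusted p = 0.00022, edgeR). Sdhc, at 0.29, passed too. Sdha did not pass the test, with 228, 243 and 231 CPM in KO-labelled libraries and 211, 226 and 206 CPM in WT-labelled ones (log2 change 0.12, interval 0.02 to 0.23, adjusted p = 0.085, edgeR). Its 3 values labelled KO still lay above the 3 labelled WT. Without WT library 2 it was called (0.16, adjusted p = 0.046, edgeR), as with DESeq2 (0.13, adjusted p = 0.016). Sdha was also called on the deposited FPKM scale (0.27, adjusted p = 0.0085, limma), where the median over all genes was 0.15. Median-ratio scaling of FPKM gave 0.06 without a call, and quantile normalization of FPKM turned it to -0.02.

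No RefSeq promoter was found for Sdhc, and the promoters of the other 3 subunit genes are printed. Each runs from 250 bases before to 50 after the RefSeq start on GRCm38.p6. Capitals mark exact matches, on either strand, to TCAAGGTCA, an extended half-site of the oestrogen-related receptors (ERR), or to ACCGGAAG, a site of ETS factors such as GABP. The Sdhb promoter lies at chr4:140961021-140961320 (plus strand), that of Sdhd at chr9:50603800-50604099 (minus strand) and that of Sdha at chr13:74350191-74350490 (minus strand).
Sdhb: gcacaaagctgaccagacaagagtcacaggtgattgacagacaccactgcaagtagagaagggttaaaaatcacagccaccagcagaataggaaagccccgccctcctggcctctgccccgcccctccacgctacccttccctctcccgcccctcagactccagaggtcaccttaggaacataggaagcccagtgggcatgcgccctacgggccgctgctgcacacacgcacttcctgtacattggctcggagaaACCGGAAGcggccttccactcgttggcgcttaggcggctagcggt
Sdhd: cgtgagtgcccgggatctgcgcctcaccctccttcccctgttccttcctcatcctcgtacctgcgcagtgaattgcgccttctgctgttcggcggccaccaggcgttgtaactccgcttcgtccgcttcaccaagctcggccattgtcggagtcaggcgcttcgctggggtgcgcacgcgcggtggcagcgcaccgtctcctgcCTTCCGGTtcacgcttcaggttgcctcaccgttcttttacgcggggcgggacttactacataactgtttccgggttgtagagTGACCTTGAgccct
Sdha: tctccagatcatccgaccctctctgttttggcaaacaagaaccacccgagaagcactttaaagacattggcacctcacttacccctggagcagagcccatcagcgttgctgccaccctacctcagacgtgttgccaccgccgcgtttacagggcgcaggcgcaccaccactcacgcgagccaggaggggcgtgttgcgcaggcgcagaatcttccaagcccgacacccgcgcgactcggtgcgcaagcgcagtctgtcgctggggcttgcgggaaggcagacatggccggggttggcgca
The Sdhb window held an ETS match from base 6, counted from the start site, and the Sdhd window held an ETS match from base -46 and an ERR match from base 37. The Sdha window held no match to either string. RefSeq promoters were found for 27 of the 30 members, 34 windows in all. ETS matches were in 11.8% of these windows, in Dlst, Idh3g, Sdhb and Sdhd, beside 2.3% of all 32851 windows. The ERR string was in 2.94%, Sdhd alone, beside 0.423% of all windows. The NRF1 motif, searched as GCGCA followed at once by its reverse complement, was in 0 of the 34 and in 0.971% of all. The windows of Pcx, Pdhx, Pdhb and Suclg1, the members with the highest log2 changes, held no match to any of these strings. Any link between matches and the change in RNA was not tested.

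The last steps of the cycle rose in both compartments. Fh1, fumarase, had 79.5, 78.4 and 78.4 CPM in KO-labelled libraries, against 65.5, 60.9 and 71.3 CPM in WT-labelled ones (log2 change 0.26, adjusted p = 0.015, edgeR). Leaving out KO library 1 or 2 (adjusted p = 0.057 and 0.053, edgeR) or WT library 1 or 2 (adjusted p = 0.057 and 0.061, edgeR) ended its call. Mdh2, the mitochondrial malate dehydrogenase, had 425, 417 and 399 CPM in KO-labelled libraries, against 302, 300.2 and 289 CPM in WT-labelled ones (log2 change 0.48, SE 0.04, adjusted p = 8.4e-06, edgeR). Mdh1, its cytosolic partner in the malate-aspartate shuttle that carries reducing equivalents into mitochondria, had 202, 204 and 203 CPM in KO-labelled libraries and 154, 161 and 166 CPM in WT-labelled ones (log2 change 0.34, SE 0.04, adjusted p = 0.00023, edgeR). Mdh1 was the sole riser among the 4 cytosolic members, of which 1 fell and 2 did not pass, whereas 20 of the 25 tested mitochondrial members rose and 0 fell.

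Oxaloacetate leaves the cycle through phosphoenolpyruvate carboxykinase, which serves glucose synthesis in liver and kidney and glycerol synthesis in fat. Pck1 (chr2:173153048-173159273, plus strand, GRCm38), the cytosolic form, had 105, 98.0 and 91.8 CPM in KO-labelled libraries, against 189, 181 and 187 CPM in WT-labelled ones. Every library labelled KO lay far below every library labelled WT. The log2 change was -0.92 (SE 0.05, adjusted p = 9.2e-07, edgeR) and ran from -0.97 to -0.87 when each library was left out. Hepatocyte markers moved with it: 7 of 7 fell, where 11.5% of all genes tested were called higher and 10.5% lower. Their log2 changes ran from -3.42 to -0.38, with a median of -2.77. They summed to 95.8 to 102 CPM in KO-labelled libraries and 202 to 206 CPM in WT-labelled ones. Of these, Alb had 7.12, 7.67 and 6.27 CPM in KO-labelled libraries and 67.8, 70.5 and 70.4 CPM in WT-labelled ones. Shared adipocyte markers had 4 of 10 members higher and 4 lower, and summed to 3655 to 3678 CPM in KO-labelled libraries and 3517 to 3545 CPM in WT-labelled ones. The part of liver or fat RNA in the fall of Pck1 was not tested. Pck2, the mitochondrial form, did not pass (0.06, interval -0.20 to 0.32) and had between 11.7 and 14.6 CPM in all 6 libraries.

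**Figure D2:**
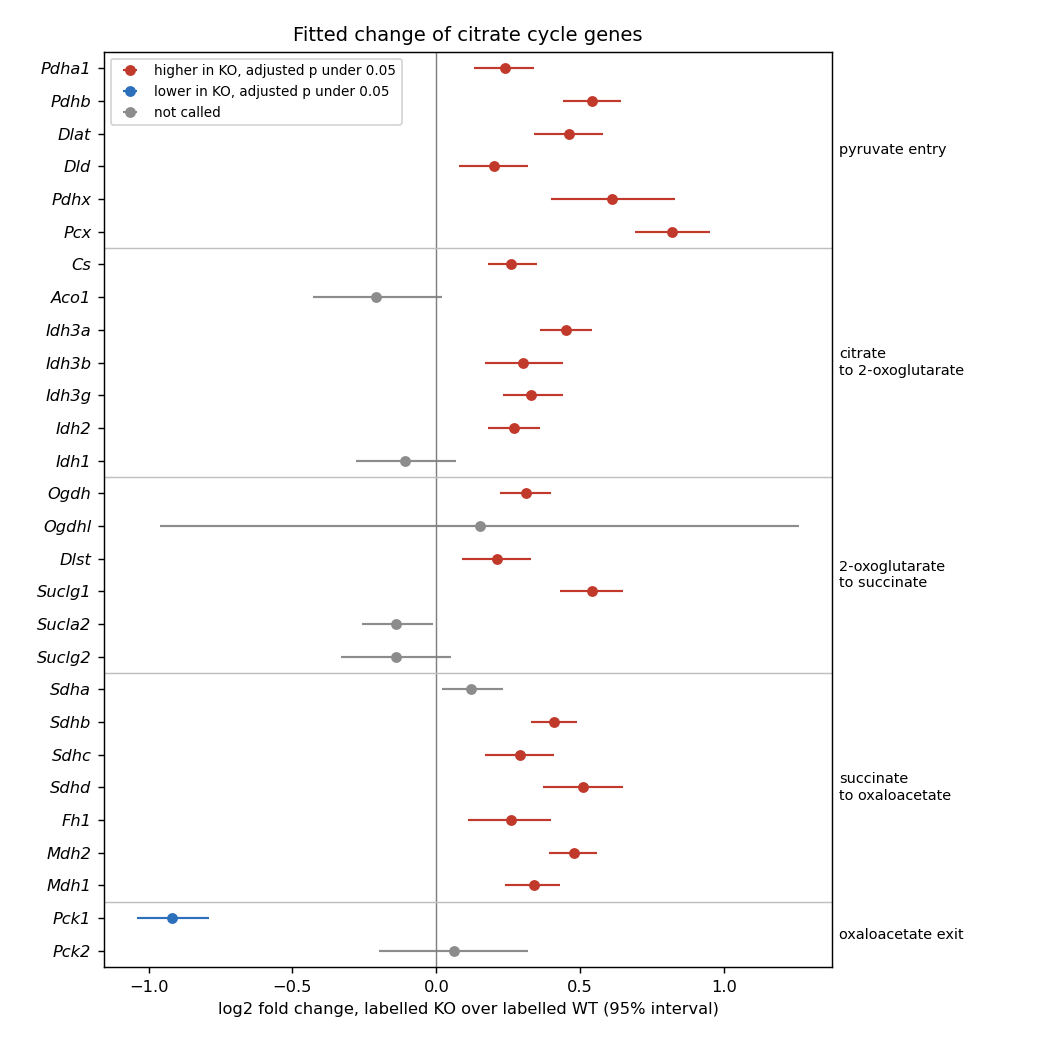
The fitted log2 fold change of 28 tested citrate cycle genes, labelled KO over labelled WT, with its 95% interval, by step; colour marks the call at an adjusted p of 0.05. Changes run from -0.92 for Pck1 to 0.82 for Pcx, and the 7 genes not called include Sucla2, Suclg2, Aco1 and Idh1.

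Ratios between subunits of 1 enzyme do not depend on how libraries are scaled, so they were taken per library from FPKM. With 3 libraries against 3 an exact two-sided permutation test cannot go below p = 0.10. Of 9 ratios 7 separated the groups and reached that value (0.129 adjusted over the 9). Several ratios share a gene, and other gene pairs were not counted for comparison. For single genes, 19.3% of all tested lay wholly above and 19.4% wholly below in CPM. The widest gap was in succinyl-CoA ligase, where the log2 ratio of Suclg1 to Sucla2 was -0.13, -0.19 and -0.46 in KO-labelled libraries, against -0.96, -0.98 and -0.86 in WT-labelled ones. Alpha relative to this beta subunit was thus 1.6-fold higher in KO-labelled libraries (exact p = 0.10). The log2 ratio of Sdha to Sdhb was -1.18 ± 0.0343 in KO-labelled libraries and -0.89 ± 0.0633 in WT-labelled ones (SD, n = 3 each, exact p = 0.10). That of Pdha1 to Pdhb was 0.43 ± 0.0293 in KO-labelled libraries and 0.73 ± 0.0295 in WT-labelled ones (SD, n = 3 each, exact p = 0.10). In both enzymes the ratio was lower in KO-labelled libraries, with differences of -0.29 and -0.30. The difference was 0.22 for Dlat to Pdha1, -0.26 for Dld to Dlat, -0.22 for Sdhc to Sdhd and -0.15 for Idh3b to Idh3a (exact p = 0.10 each). Without KO library 3 the difference for Sdhc to Sdhd was -0.12. For Idh3b to Idh3a the nearest libraries of the groups were both at -0.01 after rounding. The groups overlapped for Dlst to Ogdh (difference -0.10, exact p = 0.20) and Idh3g to Idh3a (difference -0.11, exact p = 0.20).

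**Figure D3:**
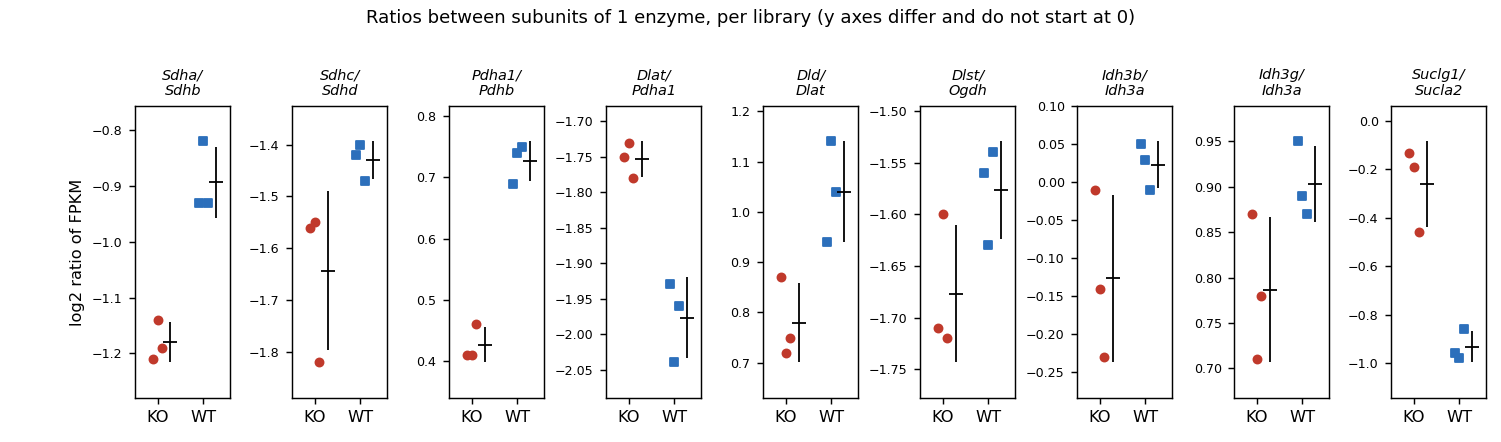
Each panel is a ratio of FPKM between 2 subunits of an enzyme on a log2 scale, with 1 point per library (KO left, WT right) and a bar for the mean and SD of 3. The axes differ between panels; Suclg1 over Sucla2 shows the widest gap, with -0.46 as its lowest KO value and -0.86 as its highest WT value.

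Shares of paralogues in their summed FPKM were compared in the same way. Idh1 held 8.14% ± 0.0858 of Idh1 and Idh2 in KO-labelled libraries and 10.3% ± 0.636 in WT-labelled ones (SD, n = 3 each, exact p = 0.10). Mdh1 held 39.7% ± 0.778 of Mdh1 and Mdh2 in KO-labelled libraries and 42.0% ± 1.47 in WT-labelled ones (SD, n = 3 each, exact p = 0.10). Both cytosolic shares were thus lower in KO-labelled libraries with no overlap between groups, although Mdh1 itself rose. For Mdh1 the groups nearly touched, with 40.5% as the highest KO-labelled share and 40.6% as the lowest WT-labelled one. Its difference of -2.33 percentage points was -1.57 without WT library 3. Shares of other gene groups were not counted for comparison. Of single genes, 19.3% of all tested lay wholly above and 19.4% wholly below in CPM. Pck2 held 5.73%, 5.13% and 5.9% of Pck1 and Pck2 in KO-labelled libraries, against 3.18%, 2.89% and 2.67% in WT-labelled ones. Its difference of 2.67 percentage points was 5.48 when CPM, which are not per length, replaced FPKM. Idh2 held 53.3% ± 0.285 of the mitochondrial isocitrate dehydrogenases in KO-labelled libraries and 54.8% ± 0.729 in WT-labelled ones (SD, n = 3 each, exact p = 0.10). Suclg2 held 7.89% ± 0.565 of the beta subunits in KO-labelled libraries and 7.9% ± 0.14 in WT-labelled ones (SD, n = 3 each, exact p = 1), and the share of Ogdhl also overlapped (exact p = 0.60). The shares of Idh1, Mdh1, Pck2 and Idh2, which separated the groups, had an exact p of 0.10, or 0.14 adjusted over the 7 shares computed.

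**Figure D4:**
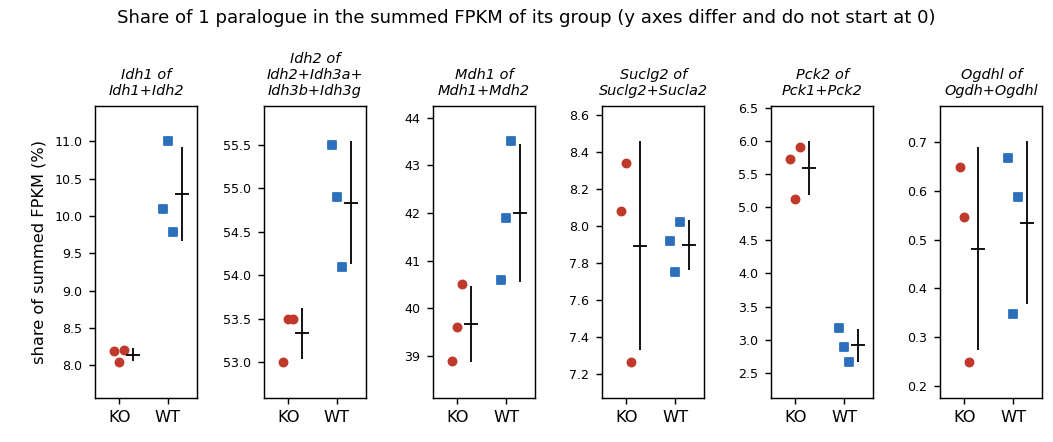
Share of a named paralogue in the summed FPKM of its group, in percent, with 1 point per library (KO left, WT right) and a bar for the mean and SD of 3. The axes differ between panels; of those drawn, the shares of Idh1, Idh2, Mdh1 and Pck2 do not overlap.

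Genes that act on or beside the cycle were counted from lists of their own. The shares to set beside all these counts are 11.5% called higher and 10.5% called lower among all genes tested. Among regulators of pyruvate dehydrogenase 4 of 7 rose and 0 fell. They were the inhibitory kinases Pdk2 (0.52), Pdk1 (0.39) and Pdk4 (0.23) and the activating phosphatase Pdp1 (0.83), so genes of opposite action moved together. Of 4 assembly factors of succinate dehydrogenase, Sdhaf3 (0.75) and Sdhaf1 (0.40) rose and 0 fell. Sdhaf1 kept its call without WT library 3 and lost it without any other (highest adjusted p = 0.099, edgeR). Sdhaf3 lost its call without KO library 3, WT library 2 or WT library 3 (highest adjusted p = 0.066, edgeR). Of 13 genes that build lipoate and iron-sulphur cofactors 4 rose and 0 fell, with Nfs1, the cysteine desulphurase, at 0.54. Nfu1 (0.49) and Isca1 (0.21) rose too but lost their calls without KO library 2, WT library 1 or WT library 2, and Isca1 also without KO library 1 or 3 (highest adjusted p = 0.075 for Nfu1 and 0.14 for Isca1, edgeR).

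Of 9 carriers that feed and drain the cycle 5 rose and 1 fell, with a median log2 change of 0.57. Mpc1, a subunit of the mitochondrial pyruvate carrier, had 159, 149 and 148 CPM in KO-labelled libraries, against 74.5, 68.8 and 68.6 CPM in WT-labelled ones (log2 change 1.11, SE 0.05, adjusted p = 2.1e-07, edgeR). Its partner Mpc2 rose by 0.61 on the log2 scale. Slc25a1, which exports citrate, had 75.9, 77.0 and 71.5 CPM in KO-labelled libraries, against 40.2, 39.4 and 38.0 CPM in WT-labelled ones (log2 change 0.93). Slc25a12, the aspartate-glutamate carrier of muscle and brain, rose by 0.79. The carrier that fell was Slc25a42, which imports coenzyme A (-0.44, adjusted p = 0.013, edgeR), and its call was lost without KO library 1 (adjusted p = 0.054, edgeR).

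Of the 20 tested genes of filling and draining reactions 6 rose and 4 fell. The 4 with the smallest p all rose: Nnt, the transhydrogenase that makes mitochondrial NADPH (2.12), Acly, which cleaves exported citrate (1.44), Me1, the cytosolic malic enzyme (1.42), and Got1, the cytosolic aspartate aminotransferase (0.82). Nnt had 51.9, 56.7 and 59.2 CPM in KO-labelled libraries, against 12.8, 11.5 and 14.2 CPM in WT-labelled ones. The C57BL/6J strain is known to carry a deletion in Nnt, and the strain of these mice is not stated. Any part of strain in this difference was not tested. Those that fell were Oxct1 (-0.31) of ketone body use, Pccb (-0.32) of propionyl-CoA carboxylase, Glud1 (-0.29), glutamate dehydrogenase, and Adhfe1 (-0.40), a hydroxyacid-oxoacid transhydrogenase. Glud1 lost its call without KO library 2 or 3 or WT library 2, and Adhfe1 kept its own without WT library 3 alone (highest adjusted p = 0.067 for Glud1 and 0.11 for Adhfe1, edgeR). Of 15 transcriptional regulators of mitochondrial genes 4 rose and 1 fell. Esrra, the oestrogen-related receptor alpha, had 63.3, 62.0 and 66.6 CPM in KO-labelled libraries and 44.2, 37.8 and 41.2 CPM in WT-labelled ones (log2 change 0.64, SE 0.07, adjusted p = 9.7e-05, edgeR). Perm1, a muscle regulator of oxidative genes, rose by 0.60, Esrrb by 1.26 and Esrrg by 0.95, while Hif1a fell by 0.51. The call of Esrrg was lost without KO library 3 or WT library 3 (highest adjusted p = 0.099, edgeR). Ppargc1a, the coactivator PGC-1 alpha, named here after its values were seen, did not pass (0.39, adjusted p = 0.10, edgeR).

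Pathways next to the cycle in KEGG are given for comparison, with no test of the difference between lists. Of 107 tested nuclear genes of oxidative phosphorylation outside the cycle 51 rose and 14 fell, with a median log2 change of 0.17. That KEGG term also holds subunits of the vacuolar proton pump. Of 47 glycolysis and gluconeogenesis genes 19 rose and 3 fell, with a median of 0.17, and of 39 fatty acid degradation genes 12 rose and 0 fell, with a median of 0.09. The share called higher among TCA cycle genes was 72.4%, beside 47.7%, 40.4% and 30.8% in these lists and 11.5% of all genes tested. Of all genes tested 10.5% were called lower. With a mean CPM of at least 1 required, 14.9% of all genes tested were called higher. The lists were not matched for abundance, on which the share called can depend.

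**Figure D5:**
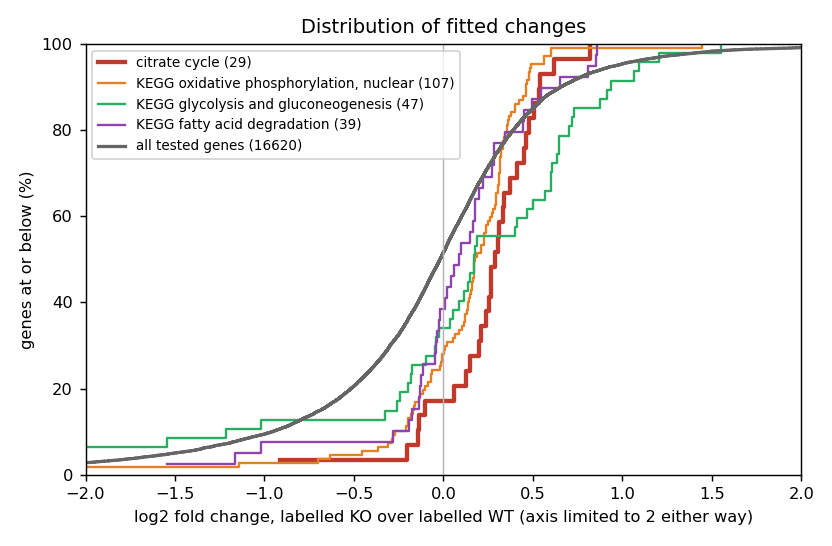
Cumulative share of genes (percent) by fitted log2 fold change, labelled KO over labelled WT, for the 29 tested citrate cycle genes, 3 neighbouring KEGG pathways and all 16620 tested genes. The citrate cycle curve crosses the median at 0.29, the oxidative phosphorylation and glycolysis curves at 0.17, fatty acid degradation at 0.09 and all genes at -0.02.

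The scale of the values changed the size of the shift. On the deposited FPKM (limma on log2(FPKM + 1), where folds of low genes are understated) 22 members rose and 1 fell, and the median member stood at 0.43 and the median of all 8605 genes at 0.15, a gap of 0.28 against 0.31 in the count fit. All genes called there split into 2753 higher and 778 lower, against 1907 and 1751 in the count fit. The share of all genes called higher was thus 32% on that scale, beside 11.5% in the count fit. After quantile normalization of FPKM 13 of 28 tested members rose and 2 fell, and the gap was 0.11. In that fit 18.1% of all genes tested were called higher.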

How the data were processed

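Poly(A) RNA of 6 libraries was sequenced with paired ends, per the labels' protocols, which name an adipose type as the RNA source while the tissue field says aorta. The authors deposited a table of 33919 genes with whole-number counts and FPKM, per the file headers. Bowtie 0.12.2, HISAT2 2.0 and mm8 appear, with no roles, in the submitters' processing notes; counting program and strandedness: not given in the sources used here. Coordinates equalled GENCODE M21 (GRCm38) for 91.1% of shared genes and 27 of 30 members, so GRCm38 is used. Low counts fell on multiples of 4 in 33.0% to 34.9% of cases, which does not settle how many counts a read pair gave. The floor of 12 counts per library assumes 4 counts for each of 3 read pairs and covers counting error only.

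The main test on the deposited counts was that of edgeR 4.0.16 (under R 4.3.3, filterByExpr, TMM, quasi-likelihood F-test, genotype alone, two-sided, Benjamini-Hochberg over 16620 genes); SE is the log2 change over the root of F. Alternatives used DESeq2 1.42.0 and limma 3.58.1. The fit was also run on simulated counts with planted changes of 1.5-fold or more. Most members changed by less, so that run does not bear on their calls. Members, lists and alternatives were chosen with earlier results of these data known. Members, and of linked lists those past the threshold with the smallest p, were named; some results are not reported here, though counts and medians include them. Figures used matplotlib 3.10.9.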

Additional observations from a re-analysis of the deposited data

How the results depend on the processing

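Across 18 alternatives, 13 of the 21 members that rose kept their call in every one. Members called higher numbered between 13 and 22: 13 after quantile normalization of FPKM, and 18 to 21 when each library was left out. Of all genes tested, 18.1% were called higher after quantile normalization of FPKM, and 8.36% to 9.79% when each library was left out. Members called lower were 2, Pck1 with Sucla2, with DESeq2, a mean CPM of at least 1, quantile normalization and median-ratio scaling of FPKM, and 1 to 2 when each library was left out. The median of the members was 0.27 to 0.32 without single libraries, and on FPKM it was 0.43 (pseudocount 1), 0.44 (pseudocount 0.1), 0.42 (no filter), 0.22 (median-ratio scaled) and 0.13 (quantile normalized). All genes called lower numbered 2629 with DESeq2 and 778, 774 and 754 in these first 3 FPKM fits, where other genes and another scaling were used. Of 517 member and setting pairs, 470 kept direction and call, 23 lost and 10 gained a call, and 14 turned direction, all of them uncalled. On FPKM as deposited Idh1 turned to 0.05 and Sucla2 and Suclg2 to 0.01 at each pseudocount and filter. Sdha turned to -0.02 (quantile), Pck2 to -0.0004 (median-ratio), and without single libraries Ogdhl ranged from -0.16 to 0.47 and Pck2 from -0.01 to 0.14. The share differences without single libraries ranged from -0.23 to 0.31 percentage points for Suclg2 and from -0.15 to 0.06 for Ogdhl. Counts divided by 4 and removal of mitochondrial genes left 21 higher and 1 lower. For the replicate numbers shared by the titles, same-numbered deviations from the group means correlated at 0.02, -0.01 and 0.02 over all genes tested. This shows no strong shared effect, but it cannot tell whether the libraries were prepared in pairs. With the replicate number as a block, 20 members were higher and 1 lower, and Dld missed the threshold (adjusted p = 0.056). Counts of 34 to 97 per library limit Ogdhl.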
